A study of Mus musculus with 11 samples.

Results

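The sarcomeric myosin heavy chains Myh1, Myh2, Myh3, Myh4, Myh7 and Myh8 were followed in the tibialis anterior (TA) muscle of dystrophic and wild-type mice. They were found by gene symbol in the deposited mRNA table, where 7 of the 28350 probe sets carry 1 of these 6 symbols, with 2 probe sets for Myh7. All 7 are of the cross-hybridization class in which the probes match 1 transcript. The samples were the TA muscles of 3 C57 mice (wild type, strain C57/B10, no treatment), 4 mdx mice (genotype Mdx on the same strain, no treatment) and 4 treated mice. Treated mice had the same genotype and strain as mdx mice and had received Pip6e-PMO, 12.5 mg/kg in saline, as 1 injection into a tail vein when 12 weeks old. Mice of every group were 14 weeks old at harvest, and the untreated groups are labelled as having no treatment, so injection itself is not controlled for. Mdx mice lack dystrophin because their Dmd gene carries a premature stop, and Pip6e-PMO is a morpholino oligonucleotide joined to a cell-penetrating peptide that restores dystrophin by exon skipping. RNA came from cryosections of the mid-belly of the muscle, with 1 Affymetrix Mouse Gene ST array per mouse.

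Myosin heavy chain is the motor protein of the thick filament, and the gene that a fibre uses sets how fast it contracts. Myh4, Myh1 and Myh2 encode the fast chains of adult IIb, IIx and IIa fibres, and Myh7 encodes the slow chain of type I fibres, which is also the beta chain of the heart. Myh3, the embryonic chain, and Myh8, the perinatal chain, are used in developing muscle and again in new fibres that form after injury, so pathologists use both to mark regeneration. The mouse TA is a fast muscle made mostly of IIb and IIx fibres. Muscle lacking dystrophin goes through rounds of fibre death and regeneration.

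Of these genes, all but Myh7 lie in a cluster on chromosome 11. By the positions in the deposited table, whose genome build is not named, these 5 genes spanned 228636 bases on the plus strand. Their order was Myh3 (66893501 to 66915668), Myh2 (66984568 to 67011016), Myh1 (67013604 to 67038079), Myh4 (67051531 to 67073948) and Myh8 (67090626 to 67122136). Whether the cluster extends beyond them was not examined. The gap of 68899 bases after Myh3 was the longest, and the next genes stood 2587, 13451 and 16677 bases apart. Differences between groups were not the same for all cluster genes in these mice. The 250 bases before the start of each of these 5 genes are therefore shown, from RefSeq on GRCm38.p6, plus strand, 5′ to 3′. The table holds all 6 genes by symbol, with 2 windows for Myh7 on the minus strand of chromosome 14, which were searched for motifs and are not shown. Capitals in the next 4 sequences mark the longest run of bases that the perinatal and the fast genes all share.
Myh8, chr11:67276874-67277123: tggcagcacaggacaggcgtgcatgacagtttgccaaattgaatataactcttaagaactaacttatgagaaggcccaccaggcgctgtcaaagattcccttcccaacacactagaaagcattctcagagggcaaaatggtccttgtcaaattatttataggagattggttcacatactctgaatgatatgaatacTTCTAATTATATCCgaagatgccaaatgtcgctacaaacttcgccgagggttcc
Myh4, chr11:67237562-67237811: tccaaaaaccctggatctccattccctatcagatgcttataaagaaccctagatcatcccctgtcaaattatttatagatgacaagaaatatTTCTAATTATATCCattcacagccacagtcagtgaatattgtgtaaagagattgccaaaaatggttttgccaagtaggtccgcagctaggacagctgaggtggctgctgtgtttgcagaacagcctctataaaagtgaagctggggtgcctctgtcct
Myh1, chr11:67199852-67200101: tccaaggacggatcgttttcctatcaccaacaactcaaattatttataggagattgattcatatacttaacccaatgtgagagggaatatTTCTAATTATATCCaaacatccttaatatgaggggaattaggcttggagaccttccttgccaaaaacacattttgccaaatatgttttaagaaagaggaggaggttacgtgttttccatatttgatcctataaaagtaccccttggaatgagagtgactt
Myh2, chr11:67170777-67171026: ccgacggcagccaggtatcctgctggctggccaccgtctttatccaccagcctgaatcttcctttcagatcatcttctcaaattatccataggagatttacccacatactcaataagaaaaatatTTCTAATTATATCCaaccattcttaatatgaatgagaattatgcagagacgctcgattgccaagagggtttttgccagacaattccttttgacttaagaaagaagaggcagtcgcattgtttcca

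This shared run is 14 bases long and lies 54 bases before the start of Myh8, 158 before Myh4, 160 before Myh1 and 125 before Myh2. It was found in 4 of the 32851 promoters of the table, those of these 4 genes. The longest run shared by all 5 cluster genes was under 10 bases, since Myh3 shares none of that length with Myh8 or Myh2. In the Myh3 sequence, shown because this gene rose most in mdx muscle, capitals mark an E-box (CANNTG) 191 bases and a TATA box (TATAAA) 29 bases before the start.
Myh3, chr11:67078050-67078299: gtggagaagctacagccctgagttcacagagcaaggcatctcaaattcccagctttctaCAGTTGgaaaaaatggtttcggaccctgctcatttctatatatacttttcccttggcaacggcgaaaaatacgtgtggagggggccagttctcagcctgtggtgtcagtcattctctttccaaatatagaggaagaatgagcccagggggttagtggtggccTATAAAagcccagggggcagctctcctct

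Both strands of these windows were searched for 5 motifs. The MEF2 motif occurred with the same letters, TTATTTATAG, in Myh8, Myh4 and Myh1, at 99, 182 and 211 bases before the start, and each copy overlapped a reverse match to TATAAA. It was present in 2.92% of all 32851 promoters. A CArG box was found in Myh4, 104 bases before the start, and in 1.47% of promoters. An MCAT motif (CATTCC) occurred in Myh4, Myh1 and 1 of the 2 windows of Myh7, and in 12.6% of promoters. Myh3, Myh8, Myh4 and Myh7 held an E-box, which occurred in 66.2% of promoters, and Myh3, Myh4 and Myh1 held a forward TATAAA near the start; TATAAA on either strand occurred in 12.4%. None of the 5 motifs was found in the window of Myh2. A match describes the letters of the window and says nothing of what binds there.

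Signals are RMA intensities as deposited, on the linear scale where written as signal, and differences between group means are on the log2 scale. To be tested, a probe set needed a group mean of 30 or more in any group, and 14494 probe sets and 5 of the 6 genes met this minimum. Tests were two-sided moderated tests in limma on all 11 mice, with Benjamini-Hochberg adjustment over the probe sets tested, and a gene was called at an adjusted p under 0.05. The number of arrays, 3 or 4 per group, limits the precision. The median signal per array ranged from 27.5 to 28.6. Pan-fibre genes Ckm, Acta1, Des and Mb were high in every mouse, with summed signals of 31188 to 32668, and 0 of the 4 were called in any comparison by limma at their leading probe sets (lowest adjusted p 0.588). A dimmer probe set of Ckm, with signals of 261 to 657, went another way, with a difference of 0.57 in mdx against C57 (adjusted p = 0.00663) and -1.06 in treated against mdx mice (adjusted p = 0.000568).

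In mdx against C57 muscle, the embryonic and perinatal chains rose, Myh4 and Myh1 had differences close to 0, and every mdx mouse lay below every C57 mouse for Myh2. Among the 5 tested genes, 2 (Myh3 and Myh8) were called, where 12.0% of all probe sets tested were called. The groups did not overlap for 3 of the 5, with Myh3 and Myh8 higher and Myh2 lower in mdx, against 24.3% of all probe sets. Myh3 reached the minimum signal in the mdx and treated groups and not in C57, so a difference from C57 was to some degree fixed by the filter.

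**Figure D1:**
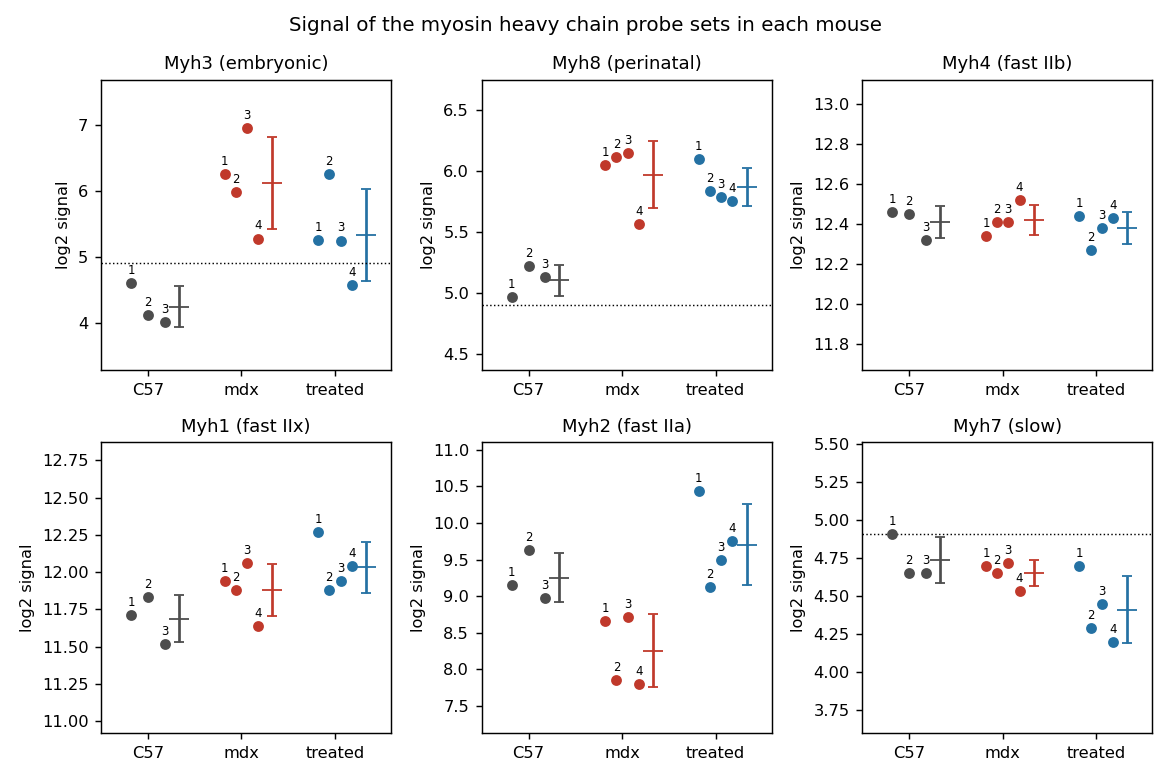
Log2 signal of each gene's leading probe set by group, with 1 point per mouse labelled by replicate number, mean ± SD beside the points (C57 n = 3, mdx n = 4, treated n = 4), a dotted line at the log2 of the minimum signal of 30 where it falls in the panel, and a vertical scale of its own in each panel. Myh3 and Myh8 were higher in every mdx than in every C57 mouse, Myh2 was higher in every treated than in every mdx mouse, and all 3 groups overlapped for Myh4.

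The Myh3 signal was 24.4, 17.4 and 16.2 in C57 replicates 1 to 3 (probe set 10377018). It was 76.6, 63.1, 123.6 and 38.9 in mdx replicates 1 to 4. It was 38.3, 76.6, 38.1 and 23.8 in treated replicates 1 to 4. All C57 mice thus lay under the minimum signal and all mdx mice above it, while treated replicate 2 lay level with mdx replicate 1, and treated replicate 4 lay within the C57 range. On the log2 scale C57 mice averaged 4.25 ± 0.32 (SD, n = 3), mdx mice 6.12 ± 0.69 (SD, n = 4) and treated mice 5.34 ± 0.70 (SD, n = 4). Myh3 rose by 1.87 in mdx (standard error 0.39, 95% interval 1.01 to 2.72, 3.65-fold, adjusted p = 0.0086 in limma), and with no filter on signals it was also called (adjusted p = 0.0166). With the C57 mean under the minimum signal, background limits the size of this fold. The call held with each mouse left out in turn (differences of 1.59 to 2.15).

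Myh8 signals were 31.3, 37.3 and 35.0 in C57 mice (probe set 10377148). In mdx mice they were 66.3, 69.6, 71.0 and 47.5. In treated mice they were 68.6, 57.3, 55.3 and 54.2. The C57 mice formed a low group of their own, and the treated range lay inside the mdx range. Myh8 rose by 0.87 in mdx (standard error 0.15, 95% interval 0.55 to 1.18, 1.82-fold, adjusted p = 0.00252 in limma). It was also higher in treated than in C57 mice, by 0.77 (standard error 0.15, 95% interval 0.45 to 1.08, 1.70-fold, adjusted p = 0.00385). Both calls held with each mouse left out in turn, with adjusted p of at most 0.0129 and 0.0167.

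Among the adult fast chains, Myh2 differed most between groups and Myh4 least. Myh2 signals were 568, 792 and 505 in C57 mice (probe set 10377055). They were 405, 231, 419 and 221 in mdx mice. They were 1389, 560, 719 and 867 in treated mice. Mdx mice were thus lowest without exception, with replicates 2 and 4 well below replicates 1 and 3, and treated replicate 1 was the highest of all mice. On the log2 scale C57 mice averaged 9.25 ± 0.34 (SD, n = 3), mdx mice 8.25 ± 0.50 (SD, n = 4) and treated mice 9.70 ± 0.55 (SD, n = 4). The difference of -1.0 between mdx and C57 (standard error 0.31, 95% interval -1.68 to -0.32) narrowly missed the threshold in limma, with an adjusted p of 0.0574. It passed without mdx replicate 3 (-1.15, adjusted p = 0.0484), without treated replicate 1 (adjusted p = 0.0295) and without treated replicate 2 (adjusted p = 0.0351). Without any other mouse it did not pass, and it was weakest without C57 replicate 2 (-0.81, adjusted p = 0.223).

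For Myh4, the IIb chain, the signals were 5634, 5595 and 5113 in C57 mice (probe set 10377117). They were 5185, 5442, 5442 and 5873 in mdx mice and 5557, 4939, 5330 and 5518 in treated mice. The groups overlapped throughout, and the whole range over 11 mice was 0.25 on the log2 scale. The mdx minus C57 difference was 0.01 (95% interval -0.18 to 0.20, adjusted p = 0.967 in limma), and its sign turned when each array was centred on its median (-0.03). The treated minus mdx difference was -0.04 (95% interval -0.22 to 0.14, adjusted p = 0.774), and the treated minus C57 difference was -0.03 (95% interval -0.22 to 0.16, adjusted p = 0.825); both turned to 0.06 when quantile normalization was repeated. These signals are high for the array, whose highest value in the table was 15393, and whether high signals are compressed was not tested.

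Myh1, the IIx chain, had signals of 3350, 3641 and 2937 in C57 mice (probe set 10377087). They were 3929, 3769, 4270 and 3191 in mdx mice and 4939, 3769, 3929 and 4211 in treated mice. Every treated mouse lay above every C57 mouse, whereas mdx mice overlapped both groups. Its differences were 0.19 for mdx minus C57 (95% interval -0.09 to 0.47, adjusted p = 0.397 in limma) and 0.15 for treated minus mdx (95% interval -0.11 to 0.41, adjusted p = 0.405). The difference between treated and C57 mice was 0.35 (95% interval 0.07 to 0.63, adjusted p = 0.0674), and without treated replicate 2 it passed the threshold (0.40, adjusted p = 0.039). Without any other mouse it did not pass, and it was weakest without C57 replicate 3 (0.26, adjusted p = 0.238).

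Myh7, the slow chain, stayed below the minimum signal of 30 in the mean of each group and was not tested. Its leading probe set (10419934, chromosome 14, 55589525 to 55613386, minus strand) had signals of 30.1, 25.1 and 25.1 in C57 mice. Those of mdx mice were 26.0, 25.1, 26.4 and 23.1, and those of treated mice 26.0, 19.6, 21.9 and 18.4, which ran lower but overlapped. The other probe set with this symbol (10415140, 55587624 to 55593186) lies on the opposite strand, overlaps the first over 3662 bases and had signals of 8.94 to 13.7. Neither probe set gives a difference that was tested here.

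In treated against mdx muscle, Myh2 had the largest difference of the tested chains. Myh2 rose by 1.45 (standard error 0.29, 95% interval 0.82 to 2.08, 2.74-fold, adjusted p = 0.0158 in limma), and all 4 treated mice lay above all 4 mdx mice. It was the 1 gene called of the 5 tested, where 11.1% of all probe sets tested were called, and the 1 gene whose groups did not overlap, where 16.0% did not. Without mdx replicate 4, the mdx mouse with the lowest signal, the call was lost (1.30, adjusted p = 0.05). Without treated replicate 4 it was kept by a margin lost in rounding (1.43, adjusted p = 0.05). The treated minus C57 difference of Myh2 was 0.45 (95% interval -0.23 to 1.13, adjusted p = 0.299), and 2 treated mice lay above the C57 range. Without treated replicate 1 this difference was 0.21 (adjusted p = 0.626).

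Myh3 had a treated minus mdx difference of -0.78 (standard error 0.36, 95% interval -1.57 to 0.01, adjusted p = 0.163 in limma). Its size depended on single mice. Without treated replicate 2 the difference was -1.09 and was called (adjusted p = 0.0292), whereas without mdx replicate 3 it was -0.50 (adjusted p = 0.373) and without treated replicate 4 it was -0.53 (adjusted p = 0.38). Relative to the mdx minus C57 difference, Myh3 had moved back towards C57 by 45.9, -7.63, 46.5 and 82.9% in treated replicates 1 to 4, with a mean of 41.9%. Myh8 had a treated minus mdx difference of -0.10 (95% interval -0.39 to 0.19, adjusted p = 0.646), and its movement towards C57 was -14.7, 15.3, 21.1 and 24.5%, with a mean of 11.5%. For neither embryonic nor perinatal chain was the fall towards C57 called with all mice.

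**Figure D2:**
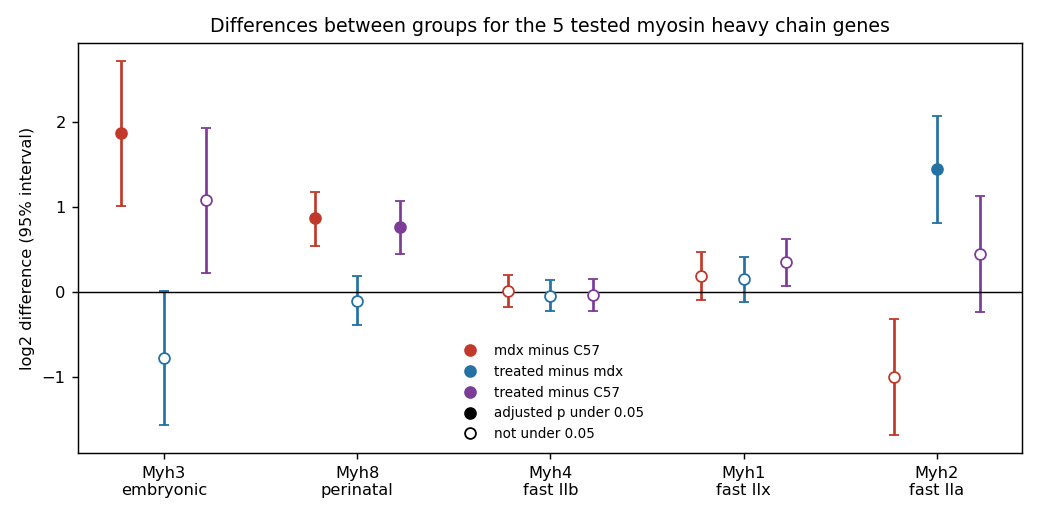
Log2 differences between group means for the 5 tested genes, with 95% intervals from limma (3 C57, 4 mdx and 4 treated mice); filled points have an adjusted p under 0.05 and open points do not. Myh3 and Myh8 lie above 0 for mdx minus C57, Myh2 rises by 1.45 in treated against mdx mice, and the 3 intervals of Myh4 all lie within 0.22 of 0.

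Against C57, treated muscle kept a higher Myh8 signal, as given above. Myh8 was the 1 called of the 5 tested genes, where 24.6% of all probe sets tested were called, and Myh8 and Myh1 were the 2 whose groups did not overlap, where 32.0% did not. Myh3 was 1.09 higher in treated than in C57 mice (standard error 0.39, 95% interval 0.23 to 1.94, adjusted p = 0.0616 in limma). It passed the threshold without mdx replicate 3 (adjusted p = 0.0462), mdx replicate 4 (adjusted p = 0.0424) or treated replicate 4 (1.34, adjusted p = 0.0352). Without any other mouse it did not pass: it was 0.97 without C57 replicate 3 (adjusted p = 0.183) and 0.78 without treated replicate 2 (adjusted p = 0.101). All 3 comparisons share groups with each other, so their results are not independent.

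**Figure D3:**
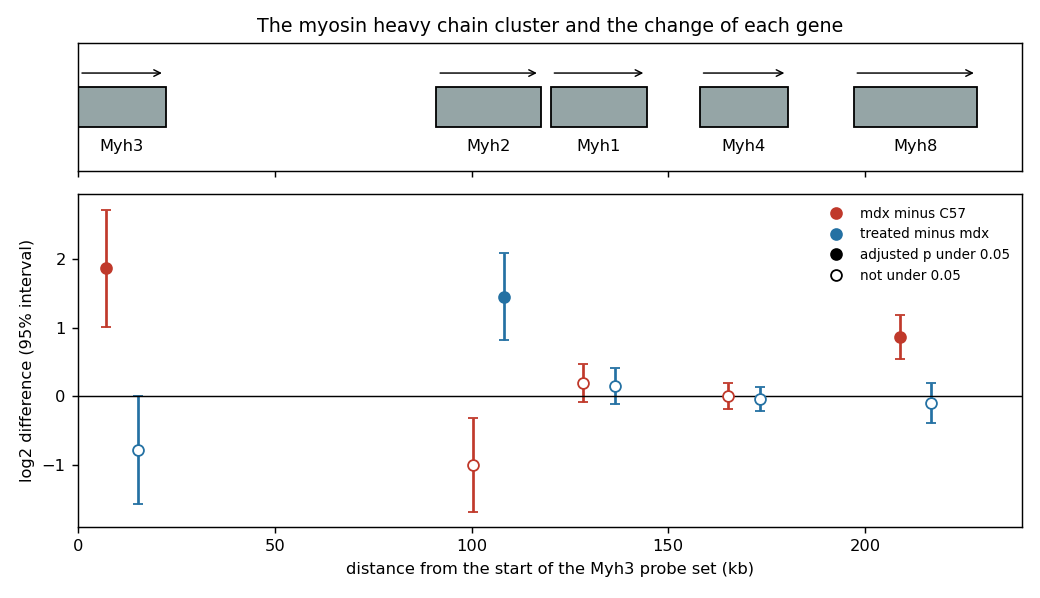
The myosin heavy chain cluster, with each probe set drawn to scale as a box at its distance in kb from the start of the Myh3 probe set and arrows in the direction of transcription, above the log2 differences of each gene with 95% intervals (filled, adjusted p under 0.05; open, not). Only genes followed here are drawn. The embryonic and perinatal genes, the first and last of those drawn, rose in mdx by 1.87 and 0.87. Of the fast genes between them, Myh2 rose in treated against mdx mice. Myh1 and Myh4 were called in neither of the 2 comparisons drawn, mdx minus C57 and treated minus mdx.

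Ratios within an array show whether chains changed unequally, with no need to compare the level of probe sets. The log2 ratio of Myh2 to Myh4 was 1.49 higher in treated than in mdx mice (exact permutation test, two-sided, p = 0.0286, the smallest that 4 against 4 mice can give). For Myh3 to Myh4 and Myh8 to Myh4 the mdx minus C57 differences were 1.86 and 0.86, each with p = 0.0571 in the exact permutation test, the smallest that 3 against 4 mice can give. Over the 15 ratio tests the lowest adjusted p was 0.143, and with these group sizes none could have passed an adjusted threshold of 0.05.

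**Figure D4:**
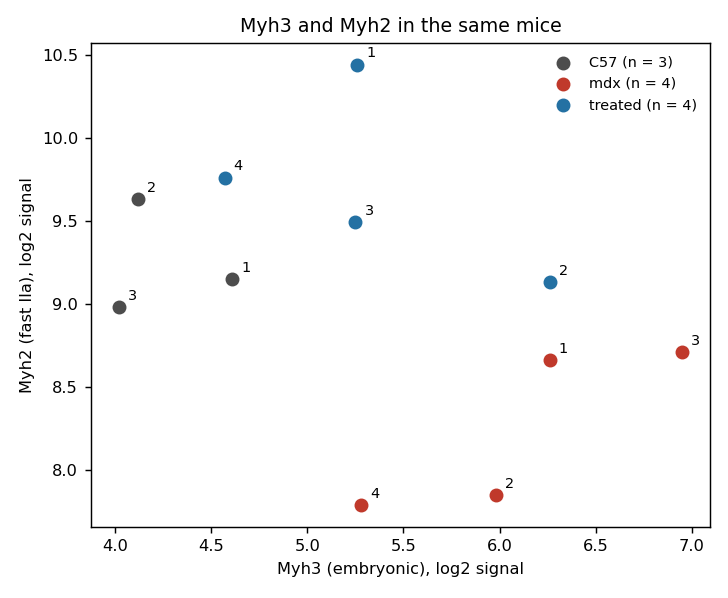
Log2 signal of Myh2 against that of Myh3 in each mouse, coloured by group and labelled by replicate number (3 C57, 4 mdx and 4 treated mice). Treated replicate 2 has the Myh3 signal of mdx replicate 1, 76.6, and the lowest Myh2 signal of the treated mice, 560, which is still above all mdx mice.

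Other cells of the muscle moved between groups with these genes. Beside the counts below, 12.0% of all probe sets tested were called in mdx against C57 and 11.1% in treated against mdx mice. Of 9 macrophage genes, 9 rose in mdx, and their summed signal was 1286.5 to 1709.9 in C57 mice, 3625 to 5733.4 in mdx mice and 2538.8 to 3890.5 in treated mice. Of 7 fibroblast genes, 3 rose in mdx, and the summed signal was 4571.8 to 6320.6 in C57 mice, 6703 to 8447 in mdx mice and 6274.6 to 10794 in treated mice. Of 4 Schwann cell genes tested, 2 fell in mdx (summed signals of 1622.5 to 2542.7 in C57 and 1227.1 to 1576.2 in mdx). Of 4 adipocyte genes, 3 fell in treated against mdx mice: Adipoq (-1.64), Plin1 (-1.56) and Cfd (-1.94). Fabp4 had 0.26 (adjusted p = 0.143 in limma). Summed adipocyte signals were 1044.1 to 1703.1 for mdx mice and 1094.7 to 1118.3 for treated mice. Fabp4, at 754.8 to 989.1 in treated mice, made up most of the treated sums, which therefore do not show the falls. S100b, also listed for Schwann cells, stayed below the minimum signal in every group (12.6 to 19.8) and was not tested. The part of these lists in the myosin results was not tested. In whole muscle, fewer fibres of a type and less of an mRNA per fibre cannot be told apart.

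Genes of regenerating and immature fibres rose with Myh3 and Myh8 in mdx muscle. Of 15 listed genes, 14 were tested, and 10 rose and 0 fell in mdx against C57, with a median difference of 1.23 where the median of all probe sets tested was -0.01. Of all probe sets tested, 12.0% were called. Tmem8c, now called myomaker and needed for myoblast fusion, rose by 3.28 (standard error 0.48, adjusted p = 0.00116 in limma), with signals of 32.4 to 46.2 in C57 and 215.3 to 617.4 in mdx mice. Chrng, the fetal subunit of the acetylcholine receptor, rose by 2.24 (adjusted p = 0.0063, or 0.0116 with no filter on signals). Every C57 mouse lay below the minimum signal for Chrng, so the filter fixed a difference to some degree and background limits its size. Igf2, a growth factor of fetal and regenerating muscle, rose by 2.08 (adjusted p = 0.000602). Myf5 was not tested, and the others not called were Myod1, Myf6, Cdh15 and Pax7, with differences of 0.42, 0.10, -0.15 and 0.26.

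In treated against mdx mice, 3 of these 14 genes fell, 0 rose, and all 14 differences were below 0, with a median of -0.63 beside 0.02 over all probe sets. Of all probe sets tested, 11.1% were called. Tnnt2, the cardiac troponin T that immature fibres also use, fell by 0.92 (adjusted p = 0.0304 in limma), and Myl4, an embryonic and atrial light chain, fell by 0.88 (adjusted p = 0.0356). Chrna1, a subunit of the acetylcholine receptor, fell by 0.62 (adjusted p = 0.0388). The mean log2 signal over the 14 genes was 7.66 to 7.83 in C57 and 8.84 to 9.32 in mdx mice. It was 8.36, 8.94, 8.27 and 8.02 in treated replicates 1 to 4, so treated replicate 2 lay in the mdx range here as it did for Myh3. Without this mouse 8 of the 14 fell, without C57 replicate 2, mdx replicate 1 or mdx replicate 4 the count was 1, and without mdx replicate 2, mdx replicate 3, treated replicate 3 or treated replicate 4 it was 0. The 3 rises named for mdx held with each mouse left out (adjusted p of at most 0.0275).

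The fast fibre programme, like Myh4, was not called. Of 12 fast genes, including Mylpf, Tnnt3, Atp2a1, Actn3 and Pvalb, 0 were called in any comparison by limma, with lowest adjusted p of 0.403 in mdx against C57, 0.311 in treated against mdx and 0.161 in treated against C57 mice. Their differences ran from -0.06 to 0.12, from -0.11 to 0.05 and from -0.16 to 0.07. Of all probe sets tested, 12.0%, 11.1% and 24.6% were called in these comparisons. The mean log2 signal over these genes was 12.63 to 12.75 over all mice. As for Myh4, such signals are high for the array, and whether they are compressed was not tested.

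Genes of the slow programme went both ways. Of 13 tested, 3 rose and 1 fell in mdx (median difference 0.40), and 4 rose and 2 fell in treated against mdx mice (median 0.02). Of all probe sets tested, 12.0% and 11.1% were called in these comparisons. The mdx rises include Tpm3 (0.40, adjusted p = 0.0223 in limma), whose leading probe set matches more than 1 transcript. Its other probe sets had -0.11 and 0.17 and were not called (adjusted p = 0.717 and 0.273). With a mean over each gene's probe sets, 2 rose and 1 fell in mdx. Without C57 replicate 2, 1 rose and 1 fell in mdx. With 1 mouse left out, the treated minus mdx counts ran from 1 rise and 0 falls (without treated replicate 4) to 4 rises and 5 falls (without treated replicate 2), and came to 3 or 4 in all without any other treated or mdx mouse. Tnni1, slow troponin I, which immature fibres also use, rose by 2.47 in mdx (standard error 0.56, adjusted p = 0.0132 in limma). Myl3, the slow ventricular light chain, fell by 1.67 in mdx (standard error 0.22, adjusted p = 0.000506) and rose by 0.80 in treated against mdx mice (adjusted p = 0.0297). Atp2a2, the calcium pump of slow and cardiac muscle, rose by 0.76 in mdx (adjusted p = 0.000408). Csrp3, a Z-disc protein, rose by 1.30 (adjusted p = 0.0158) in treated against mdx mice. Myoz2, a Z-disc protein of slow fibres, rose by 0.94 (adjusted p = 0.0385) and Ankrd2 by 0.75 (adjusted p = 0.0113 in limma) in that comparison. The 2 falls called there were Tnnt1 (-0.79, adjusted p = 0.033) and Myl2 (-0.75, adjusted p = 0.0328). Tnni1 and Tnnc1 had larger negative differences, -1.71 and -1.21, and were not called (adjusted p = 0.0531 and 0.0919). Leaving out 1 mouse ended the call of Tnni1 (C57 replicate 2, adjusted p = 0.0594) and that of Csrp3 (treated replicate 4, adjusted p = 0.0527). The treated minus mdx calls of Myoz2 and Myl3 were each lost in 5 of the 11 cases, mdx replicate 4 and treated replicates 1 and 4 among them for both. For Myoz2 the others were mdx replicate 3 and treated replicate 3, and for Myl3 mdx replicates 1 and 2.

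**Figure D5:**
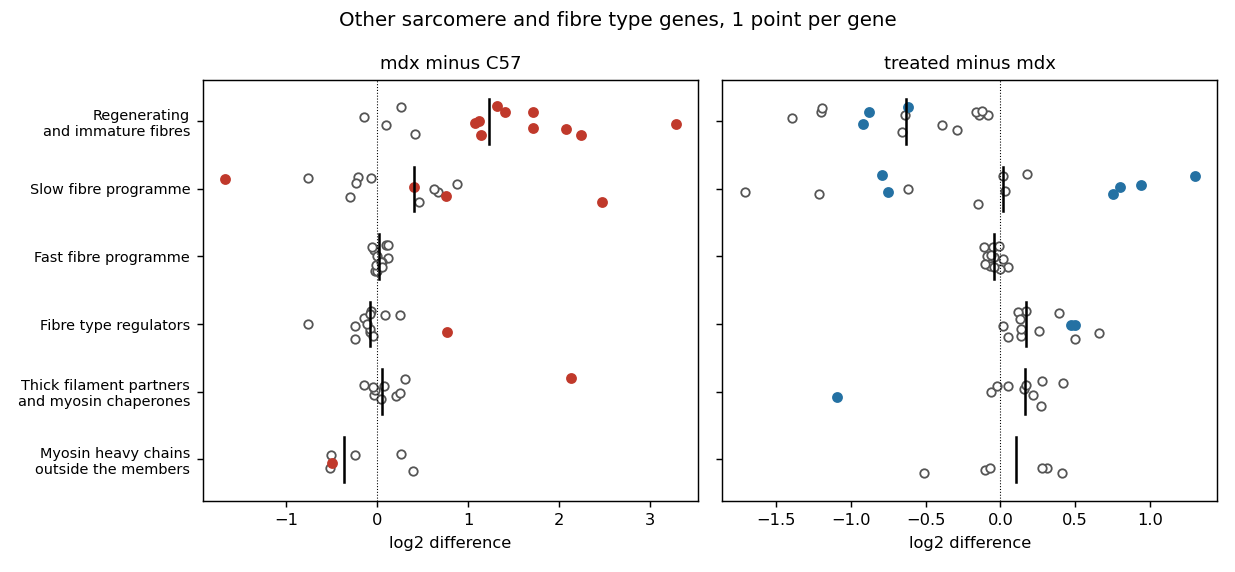
Log2 differences of the tested genes of 6 lists, 1 point per gene, for mdx minus C57 on the left and treated minus mdx on the right; filled points have an adjusted p under 0.05 in limma, open points do not, and black bars are list medians. Regenerating fibre genes lie to the right on the left panel (median 1.23) and to the left on the right panel (median -0.63), and the fast fibre genes lie close to 0 in both.

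Of 14 listed regulators of fibre type, 13 were tested, and 1 rose and 0 fell in mdx, a share near the 12.0% of all probe sets called. The 1 was Mef2c, whose product binds the MEF2 motif (0.77, standard error 0.17, adjusted p = 0.0115 in limma). Esrrg, a nuclear receptor of oxidative metabolism, had a difference of about the same size the other way, -0.76, and was not called (adjusted p = 0.0673). In treated against mdx mice 2 rose and 0 fell, also a share near that of all probe sets called, 11.1%. All 13 differences were above 0 (median 0.17 beside 0.02 over all probe sets). The 2 called were Tead1, a factor of the MCAT motif, with 0.50 (adjusted p = 0.0352), and Vgll2, a cofactor of TEAD proteins, with 0.47 (adjusted p = 0.0422). For 2 of these genes another probe set differed from the leading one on the call: the dimmer probe set of Tead1 had 0.36 and was not called (adjusted p = 0.109), and that of Ppargc1a, a coactivator of oxidative genes, had 0.85 and was called (adjusted p = 0.0272) where the leading one had 0.50 (adjusted p = 0.16). Both calls were lost without any 1 of the mdx mice or without treated replicates 1, 3 or 4, that of Vgll2 also without C57 replicate 2, and without treated replicate 2 the count was 5. That of Mef2c was lost without C57 replicate 3 (adjusted p = 0.0516).

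Of 10 thick filament partners and myosin chaperones, 1 was called in mdx against C57 and 1 in treated against mdx mice. Both calls, at leading probe sets, were of Mybph, a myosin binding protein, where 12.0% and 11.1% of all probe sets tested were called. Mybph rose by 2.13 in mdx (standard error 0.33, adjusted p = 0.00146 in limma) and fell by 1.09 in treated mice (standard error 0.30, adjusted p = 0.0408). The fall was called without C57 replicate 1, C57 replicate 3 or treated replicate 2 and lost without any other mouse (adjusted p up to 0.108), and the rise held throughout. Unc45b, a chaperone that folds myosin, and Smyd1, which acts in its assembly, had mdx minus C57 differences of -0.15 and -0.05. In treated against mdx mice a dimmer probe set of Unc45b, with signals of 41.4 to 60.5, was called (-0.35, adjusted p = 0.03 in limma). Its leading probe set was not (-0.06, adjusted p = 0.758). Of 8 myosin heavy chains outside the 6 followed here, 6 were tested, and Myh14, a non-muscle chain, was the 1 called in mdx (-0.50, standard error 0.13, adjusted p = 0.0261), with 0 called in treated against mdx mice by limma (lowest adjusted p 0.0524). The Myh14 call was lost without C57 replicates 2 or 3 or mdx replicates 1, 2 or 4 (adjusted p up to 0.115).

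The genes whose log2 signals ran most like those of each chain over the 11 mice were listed by Pearson's r, as a description in which the points share their groups. For Myh3 these were Tmem8c (r = 0.978), Chrng (0.967) and Myl4 (0.953), which all belong to the list of regenerating fibres. For Myh8 they were 9030425E11Rik (r = 0.940), H19 (0.935, the dimmer of its 2 probe sets) and Golim4 (0.929). For Myh2 they were Pdpr (r = 0.971), a regulatory subunit of pyruvate dehydrogenase phosphatase, Gm9983 (0.957) and Zbtb44 (0.948). For Myh1 they were Helb, Atad2b and Tpm4 (r = 0.959, 0.943 and 0.943, the last with probes that match more than 1 transcript). Myh4, with its range of 0.25, ran most like Sugp1, Stau1 and Ap3d1 (r = 0.954, 0.936 and 0.924). The signal of Myh7, below the minimum, ran most like Tmem196, Zc3h13 and its neighbour Myh6 (r = 0.902, 0.893 and 0.881).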

How the data were processed

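RNA from the TA muscle of 11 mice (3 C57, 4 mdx, 4 treated) was measured on Mouse Gene ST arrays of Affymetrix, 1 per mouse. The authors made the values in Affymetrix Expression Console with RMA (background correction, sketch-quantile normalization, median polish), and intensity values were deposited on the linear scale. Their log2 lies on whole steps of 0.01. The deposited positions name no build. The removal of probe sets below 30 in all groups, named in the study's methods, had not been made in the table and was made here on group means, keeping any probe set with a group mean of 30 or more.

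Log2 intensities of 14494 probe sets were fitted in R 4.3.3 with limma 3.58.1 (lmFit, eBayes), with a mean per group and no covariates, and adjusted by Benjamini-Hochberg. The fit was tested on simulated data. Restoration is the fall from the mdx mean in percent of the mdx minus C57 difference. Promoters are RefSeq windows of GRCm38.p6. Python 3.11.15, NumPy 2.4.6, pandas 2.3.3, SciPy 1.17.1 and matplotlib 3.10.9 were used.

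Members, lists and tests were chosen with earlier results of these data known. Named were all members (where a gene has several probe sets, the brightest on average leads), up to 3 genes per list with the largest called difference in mdx minus C57 and in treated minus mdx, and the 3 genes most like each member. Others named were chosen after their values were seen. Lists of 3 endothelial, 3 blood and 4 smooth muscle genes were also read: in mdx against C57, 0, 0 and 1 of them were called (the last, Cnn1, lower), and in treated against mdx mice 1 (Pecam1, higher), 0 and 0. The shares of all probe sets tested that were called were 12.0% and 11.1%. Alternatives were other variance models, the methods' t-test, fits of 2 groups, other signal filters, other scalings, a mean over probe sets, a replicate block and leaving out each mouse.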

Additional observations from a re-analysis of the deposited data

How the results depend on the processing

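The calls of Myh8 in mdx against C57 and in treated against C57 mice, and that of Myh3 in mdx, held with every mouse left out. With a minimum signal of 100, Myh3 and Myh8 are not tested, and 0 members were called in mdx against C57 and in treated against C57 mice. The methods' t-test after adjustment called 0 members in mdx against C57 (adjusted p = 0.0797 for Myh3 and 0.0595 for Myh8) and 0 in treated against mdx mice (Myh2 adjusted p = 0.115). At its unadjusted threshold of 0.05 it called Myh2, Myh3 and Myh8 in mdx against C57 and Myh2 in treated against mdx mice. In treated against C57 mice it called 2 at that threshold, Myh1 and Myh8. Array weights called 2 in treated against mdx and 2 in treated against C57 mice. In treated against C57 mice the trended and robust prior, repeated quantile normalization and the replicate block each called 2. Leaving out each mouse in turn gave 2 to 3 members in mdx against C57, 0 to 2 in treated against mdx and 1 to 2 in treated against C57 mice. The cause of these shifts was not tested, apart from the minimum signal, which removes both genes by construction.

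Among list genes in treated against mdx mice, 12 were called, 7 with no signal filter and 5 with the replicate block. With each mouse left out these counts were 1 to 27 (1 without treated replicate 4, 27 without treated replicate 2), 13 to 21 in mdx against C57 (17 with all mice) and 13 to 22 in treated against C57 mice (21 with all mice; 13 without C57 replicate 2 or 3).

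Myh2 in mdx against C57 was called with array weights (-1.14), the trended and robust prior, the 2 groups alone and median centring (-1.04), with adjusted p of 0.00608, 0.0477, 0.0372 and 0.0459. It was not called with the methods' t-test after adjustment (adjusted p = 0.162) or, in limma, with the replicate block (0.111) or no signal filter (0.0934). Nor was it with repeated quantile normalization (0.0671) or a minimum signal of 100 (0.0618). The sign of Myh4 turned in mdx minus C57 with array weights (-0.02), median centring (-0.03) and the replicate block (-0.01), and in treated minus mdx (0.06) and treated minus C57 (0.06) with repeated quantile normalization. With a mouse left out its differences ran from -0.03 to 0.04 in mdx minus C57 and from -0.08 to 0.01 in treated minus C57. The ratio of Myh8 to Myh4 in treated minus mdx ran from -0.23 to 0.00. Over all member differences, alternatives other than leaving out a mouse kept direction and side of the threshold in 112 cases, passed it in 9, lost it in 3 and turned the sign in 5, and leaving out a mouse did so in 153, 8, 1 and 3.

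Replicate numbers do not pair the mice: the correlations of their deviations from the group means ran from -0.2966 to 0.1528. With the replicate block, Myh3 in treated against C57 mice was called (1.35, adjusted p = 0.0223).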

Other observations

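Of 6 tested myosin heavy chains outside the main set, 1 rose, 1 fell and 4 were not called in treated against C57 mice, a comparison in which 24.6% of all probe sets were called. Myh6, the alpha chain of the heart and the neighbour of Myh7, was lower in treated mice by a difference of -1.03 (standard error 0.17, adjusted p = 0.0017 in limma), with signals of 38.9 to 47.5 in C57 mice, 28.6 to 34.1 in mdx mice and 17.6 to 30.1 in treated mice. Its treated mean lay below the minimum signal of 30. Myh10, a non-muscle chain, rose by 0.57 (standard error 0.13, adjusted p = 0.00805), with signals of 27.7 to 35.3 in C57 and 42.2 to 49.2 in treated mice. Myh13 and Myh15 were not tested, with signals of 8.75 to 13.3 and 4.79 to 5.94.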
